A study of Rattus norvegicus with 16 samples.

Results

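*Lrrn3* encodes a neuronal leucine-rich repeat membrane protein, and its transcript was measured by 1 of the 31042 non-control probe sets of an Affymetrix rat expression array, probe set 1368964_at, the only one whose listed symbol is *Lrrn3*. It is 1 of 14217 genes with a symbol of their own there. The gene was chosen because it stood among the genes with the smallest p values between zinc-deficient and pair-fed rats, so its values in that contrast are described here and not tested. The samples were 16 diencephalons, the part of the brain that holds thalamus and hypothalamus, each from 1 male Sprague-Dawley rat on 1 array, in 4 groups of 4. All rats entered at 5 weeks of age. ZD rats had free access for 10 days to food holding 0.6 mg of zinc per kg. PF rats, their controls, were given the amount that ZD rats ate, of food holding 30.0 mg of zinc per kg, for the same 10 days. ZR rats ate the deficient diet for 10 days and then the control diet for 6 days. ZRPF rats were pair-fed the control diet for 10 days and then had the same 6 days on it. In those last 6 days ZR and ZRPF rats both had a fixed ration of 13 g. All rats had taken a preference test with 300 mM NaCl. The submitters had removed 3 ZR rats and 1 ZRPF rat by their salt preference before recovery and then picked 4 average rats per group by weight, plasma zinc and salt preference, so the spread given here is that of chosen rats.

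LRRN3, also called NLRR-3, is a single-pass membrane protein with extracellular leucine-rich repeats, an immunoglobulin-like domain and a fibronectin type III domain. In cultured cells it has been described to strengthen signalling from the epidermal growth factor (EGF) receptor to MAP kinases through a cytoplasmic tail with endocytosis motifs, which bind clathrin adaptors. Its close relatives are LRRN1 and LRRN2, and many other leucine-rich repeat membrane proteins of neurons act in axon guidance and synapse formation. In human blood, *LRRN3* transcripts are known as a mark of naive T cells.

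In the rat gene table of RefSeq (assembly GRCr8), *Lrrn3* lies on chromosome 6 wholly within the span of *Immp2l*, a subunit gene of the inner mitochondrial membrane peptidase, and has 3 transcripts. The promoter window in RefSeq's GRCr8 table runs from 250 bases before to 50 bases after the gene's start, at chr6:64247244-64247543 on the minus strand. It is shown because the diets differed in zinc, and zinc is known to act on some promoters through metal response elements. Capitals mark the 1 match found among the motifs searched, a CCAAT box read on the opposite strand (ATTGG, bases 150 to 154 of the window).

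Lrrn3 promoter: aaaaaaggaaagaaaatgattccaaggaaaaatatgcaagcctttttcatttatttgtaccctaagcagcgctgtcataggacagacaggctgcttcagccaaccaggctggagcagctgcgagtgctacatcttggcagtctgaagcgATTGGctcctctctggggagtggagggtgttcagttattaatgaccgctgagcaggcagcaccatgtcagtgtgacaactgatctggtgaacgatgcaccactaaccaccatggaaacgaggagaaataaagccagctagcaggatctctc

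The core of the metal response element was searched on both strands as TGCACNC and TGCGCNC, and neither spelling occurred in this window. Over 33469 rat promoters of the same length, 12.2% held the first spelling and 14.1% the second. The cyclic AMP response element TGACGTCA was absent from the window and present in 1.83% of promoters, and its short form TGACG in 21.2%, with no match in the window. The TATA box TATAAA (14.2% of promoters) and the serum response element core (0.0329%) were not matched either. CCAAT, on either strand, was in 37.5% of them. These matches and absences describe letters in this window only. The window had 48.3% G and C bases, against a median of 51.7% over all promoters.

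The deposited values were linear signal intensities, and the array scaling gave every array the same trimmed mean, from 500.13 to 500.15. The number of arrays limits the precision. Signals correlated at 0.944 to 0.961 within groups on the log2 scale and at 0.940 to 0.961 between groups. The test took in the brighter probe sets, those with a mean log2 signal of at least 7.35 (a linear signal of 163), which is the midpoint of all, and so 15521 entered it. At a mean log2 signal of 10.98, *Lrrn3* was among them.

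*Lrrn3* was lower in every zinc-deficient rat than in any other rat of the study, though ZD rat 8 (1726) lay only just below ZR rat 13 (1731). The *Lrrn3* signal was 1484, 1532, 1726 and 1474 in ZD rats 2, 3, 8 and 9, against 2020, 2159, 2418 and 2552 in PF rats 1, 2, 4 and 6. The highest ZD rat lay below the lowest PF rat, so these groups did not overlap. The mean log2 signal was 10.60 ± 0.11 in ZD rats and 11.15 ± 0.15 in PF rats (SD, n = 4 each). The log2 difference was -0.55 ± 0.09 (SE), a signal change of -31.9%. By size it ranked 113th of the 15521 probe sets tested. As a background to that description, 1.7% of the probe sets tested were lower in ZD without overlap, and 0% passed an adjusted p of 0.05 in limma, although 7.86% had an unadjusted p under 0.05. The same values had chosen the gene, so nothing is read from its place among these. A whole tissue was measured, and fewer cells that express *Lrrn3* cannot be told apart from less *Lrrn3* RNA per cell.

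**Figure D1:**
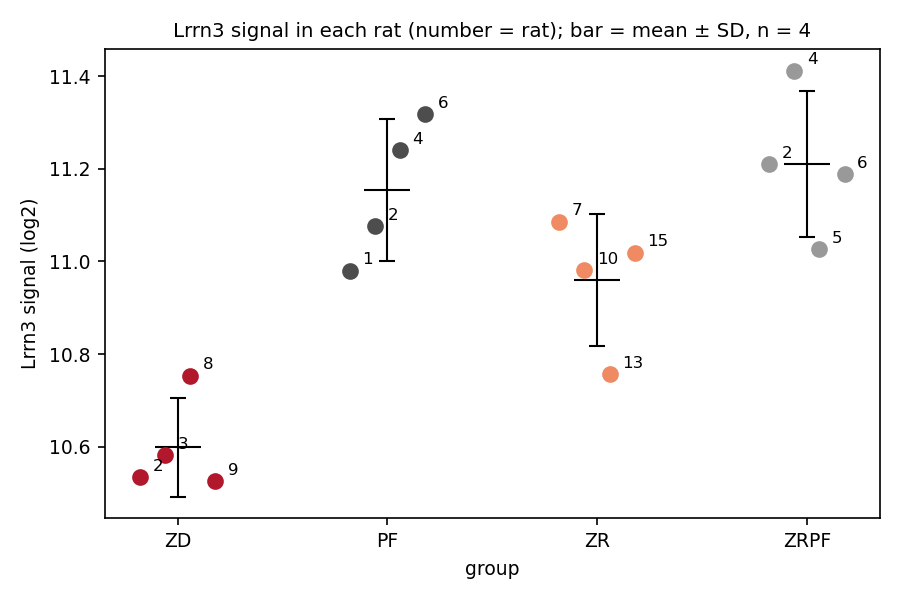
*Lrrn3* signal (log2) in each of the 16 rats, by group (ZD, PF, ZR, ZRPF), with the rat number beside each point and the mean ± SD (n = 4) as bars. The 4 ZD rats lie between 10.53 and 10.75, below all others, and 3 of the 4 ZR rats lie below every ZRPF rat.

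The comparison that the choice of the gene did not use is ZR against ZRPF, which asks whether a difference remained 6 days after zinc was returned. The *Lrrn3* signal was 2174, 2021, 1731 and 2075 in ZR rats 7, 10, 13 and 15, against 2368, 2725, 2087 and 2334 in ZRPF rats 2, 4, 5 and 6. Rats 10, 13 and 15 of the ZR group lay below all 4 ZRPF rats, while ZR rat 7 lay above ZRPF rat 5, so the groups overlapped, as did those of all but 2.98% of the probe sets tested (1.58% lower in ZR without overlap and 1.39% higher). Of the 16 possible pairs of a ZR and a ZRPF rat, the ZR rat was lower in 15. The mean log2 signal was 10.96 ± 0.14 in ZR and 11.21 ± 0.16 in ZRPF (SD, n = 4 each).

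This difference did not pass the threshold. The log2 difference was -0.25 ± 0.09 (SE), a signal change of -15.8%, with an unadjusted p of 0.0156 and an adjusted p of 0.927 in limma. Its 95% interval, not adjusted for the number of probe sets, ran from -0.44 to -0.05. The spread behind this SE, p and interval was pooled over all 16 arrays, including the ZD and PF arrays that chose the gene. With only the ZR and ZRPF arrays fitted the SE was 0.092. An exact two-sided permutation test of the difference of means gave p = 0.0571, where the smallest p that 4 against 4 arrays can give is 0.0286. Of all probe sets tested, 0.00644% passed in this comparison, a single one, and 5.21% had an unadjusted p under 0.05. That single probe set is of *Clstn3*, a calsyntenin (-1.71, adjusted p = 0.046), named after its value was seen. In 15 of 24 alternatives no probe set passed, and without ZRPF rat 6 the number was 9. By size of its difference *Lrrn3* ranked 1089th of 15521.

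Ordered by mean, the groups ran ZD, ZR, PF and ZRPF. Between ZD and ZR the means were 0.36 apart on the log2 scale and the ranges touched without overlap, with the highest ZD rat at 1726 and the lowest ZR rat, number 13, at 1731. Between ZR and PF the gap was 0.19 and the ranges overlapped. Between PF and ZRPF it was 0.06, less than the pooled spread within groups of 0.14 (SD), and the ranges overlapped. The spread was similar in the 4 groups, with a coefficient of variation of the signal from 7.58% in ZD to 11% in ZRPF.

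Across the experiments, ZR stood above ZD by 0.36 ± 0.09 (SE), and each of the 4 ZR rats lay above each of the 4 ZD rats. By size this difference ranked 2212th of the 15521 probe sets tested. The share of all probe sets whose ZR and ZD arrays did not overlap was not counted, so nothing is read from that separation. The pair-fed controls stood 0.06 ± 0.09 apart, ZRPF above PF, and 7 of the 16 pairs had the ZRPF rat lower. The summed signal of 12 hypothalamus markers also differed between the experiments without overlap, from 41758 to 47616 in ZR and from 44794 to 49682 in ZRPF, against 29468 to 39378 in ZD and 31909 to 37722 in PF, and its part in the *Lrrn3* values was not tested. These contrasts share the ZD or PF arrays that chose the gene, and the experiments differ in length, age at the end and ration, so neither was tested. Whether the ZD-PF and the ZR-ZRPF difference of *Lrrn3* differ from each other was not tested for the same reason.

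**Figure D2:**
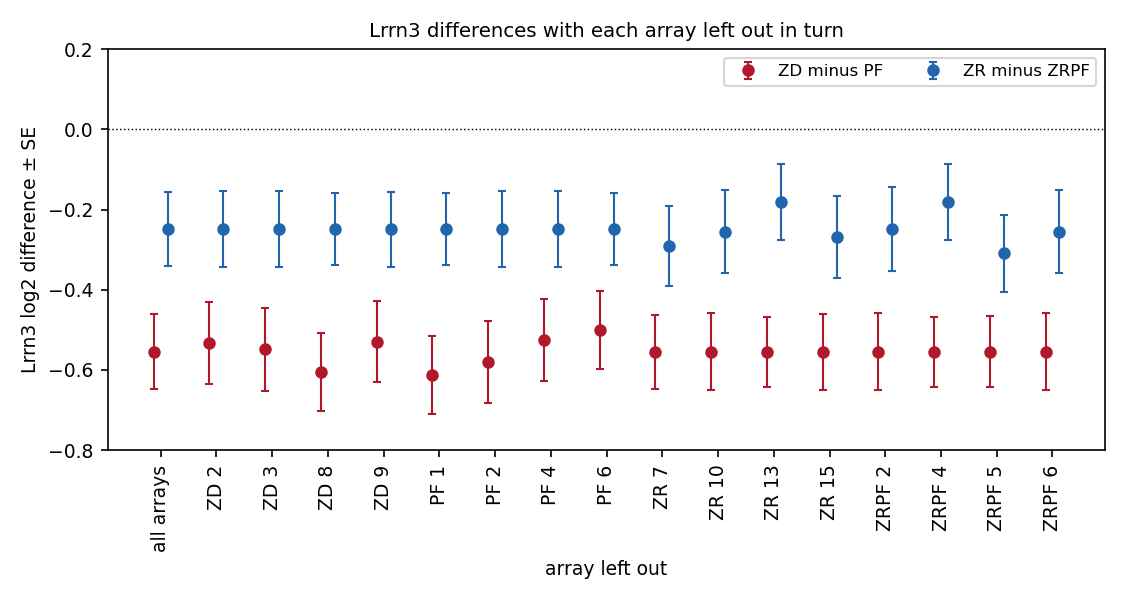
*Lrrn3* log2 difference ± SE for ZD minus PF (red) and ZR minus ZRPF (blue), over all arrays and with each array left out in turn. ZD minus PF runs from -0.61 to -0.50 and ZR minus ZRPF from -0.31 to -0.18.

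The ZD-PF values in that plot are those the gene was chosen for, and nothing is read from their stability. For ZR against ZRPF the difference stayed below 0 whichever ZR or ZRPF array was left out. Leaving out a ZD or PF array cannot change it. The value nearest to 0, -0.18, came without ZRPF rat 4 and also without ZR rat 13, and the largest, -0.31, without ZRPF rat 5. Over 24 alternatives in all, its adjusted p ran from 0.666 to 0.999, and none passed.

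Of the *Lrrn3* family, only *Lrrn2* reached the level for testing. *Lrrn2*, a sister gene of like domain structure, had signals of 1080, 890, 1027 and 1359 in ZD rats 2, 3, 8 and 9, against 1135, 1023, 1015 and 898 in PF rats 1, 2, 4 and 6. These groups overlapped, with a log2 difference of 0.09 ± 0.15 (SE, adjusted p = 0.921 in limma). In the recovery experiment *Lrrn2* had 981, 803, 1168 and 1179 in ZR rats 7, 10, 13 and 15, against 1414, 1081, 1013 and 914 in ZRPF rats 2, 4, 5 and 6. Here too the groups overlapped, with a difference of -0.10 ± 0.15 (adjusted p = 0.959). *Lrrn4*, a relative with 3 probe sets, lay below the filter on each of them, with signals from 1.41 to 127 over the 16 arrays. No probe set is listed for *Lrrn1* in the platform table used here.

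The genomic neighbours overlapped between groups in both experiments. The probe set of the host gene *Immp2l* lay below the filter, with signals of 58.0 to 123 in ZD, 46.0 to 93.5 in PF, 62.8 to 93.2 in ZR and 22.4 to 79.1 in ZRPF. It was not tested. *Dock4*, a neighbour that encodes an exchange factor for Rac GTPases, had signals of 778, 801, 910 and 690 in ZD rats 2, 3, 8 and 9, against 841, 878, 1024 and 840 in PF rats 1, 2, 4 and 6. Its log2 difference was -0.17 ± 0.11 (SE, adjusted p = 0.722 in limma) in ZD against PF, and 0.21 ± 0.11 (adjusted p = 0.927) in ZR against ZRPF.

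Among 47 other leucine-rich repeat membrane and secreted proteins of neurons, 33 were on the array and 28 were tested, and none passed in either comparison. Of all probe sets tested, 0% passed in ZD against PF and 0.00644% in ZR against ZRPF. With so few passing, a list with none past the threshold, here or below, is not shown to be unchanged. In ZD against PF, 12 stood lower and 16 higher, with a median log2 difference of 0.03 beside 0.01 over all probe sets tested and a range from -0.24 to 0.55. The members of smallest p were *Lrfn1* (0.55 ± 0.14, adjusted p = 0.254 in limma), which organises synapses, *Flrt1* (0.27 ± 0.10, adjusted p = 0.503), a guidance and adhesion protein, and *Lrrc4* (0.47 ± 0.18, adjusted p = 0.533), the netrin-G ligand of excitatory synapses. All 3 were higher in ZD, opposite to *Lrrn3*, while *Lrfn5*, the next by p, was lower (-0.24 ± 0.10, adjusted p = 0.591). *Lrfn1* and *Flrt1* were 2 of the 28 with ZD and PF arrays that did not overlap, where 4.19% of all probe sets tested had none, 2.49% with ZD higher.

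In ZR against ZRPF, 13 of the 28 stood lower and 15 higher, with a median log2 difference of 0.01 beside -0.01 over all probe sets, and the range was -0.27 to 0.18. None had groups without overlap. The members of smallest p were *Flrt2* (0.18 ± 0.10), *Flrt3* (-0.16 ± 0.09) and *Lrfn5* (0.17 ± 0.10), each with an adjusted p of 0.927. For *Flrt2* and *Lrfn5* the sign was opposite to that of *Lrrn3*.

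**Figure D3:**
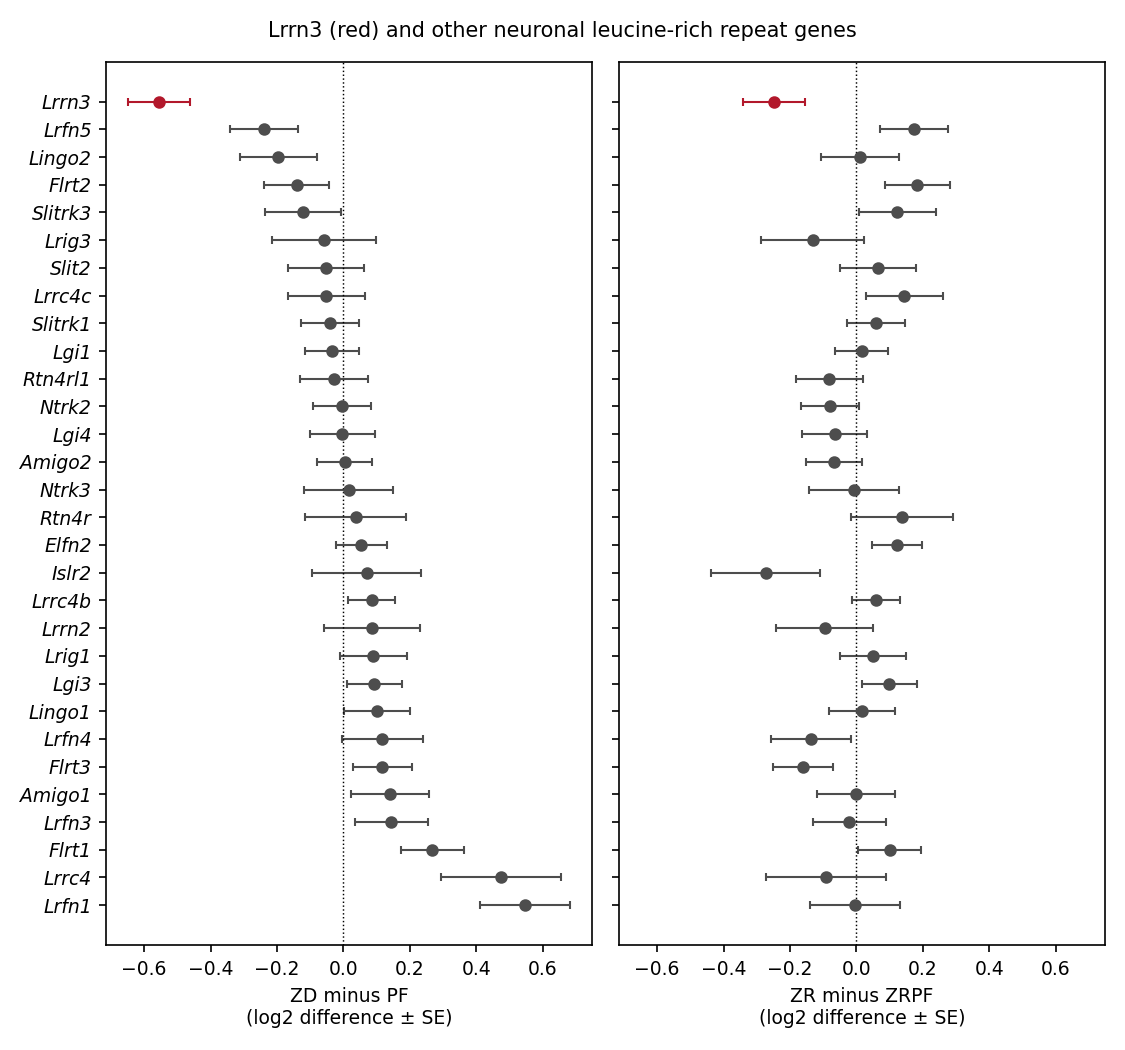
Log2 difference ± SE of *Lrrn3* (red) and of *Lrrn2* and 28 other neuronal leucine-rich repeat genes (grey), for ZD minus PF (left) and ZR minus ZRPF (right), sorted by ZD minus PF. *Lrrn3* lies at -0.55 on the left, where the lowest of the other genes lies at -0.24, and *Lrrn3* was chosen for that value. On the right it lies at -0.25 and the others between -0.27 and 0.18.

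No tested gene of the pathway in which LRRN3 has been placed in cultured cells passed. Over all probe sets tested the shares past the threshold were 0% in ZD against PF and 0.00644% in ZR against ZRPF. Of 35 genes from EGF receptor ligands to MAP kinases, 26 were on the array and 16 were tested. In ZD against PF, 7 stood lower and 9 higher, with a median of 0.01 and none past the threshold. In ZR against ZRPF, 3 stood lower and 13 higher, where 48.3% of all probe sets tested were higher. The median was 0.06, beside -0.01 over all probe sets, and again none passed the threshold. *Egfr*, the receptor itself, stood at -0.05 ± 0.14 (SE) in ZD against PF and at 0.22 ± 0.14 in ZR against ZRPF (adjusted p = 0.931 in limma). *Errfi1*, an inhibitor of the receptor, stood at -0.33 ± 0.21 (adjusted p = 0.726) in ZD against PF and at -0.39 ± 0.21 (adjusted p = 0.927) in ZR against ZRPF. *Spry2*, a feedback inhibitor of receptor signalling, stood at -0.14 ± 0.11 in ZD against PF, *Map2k2*, a MAP kinase kinase, at 0.14 ± 0.09, and *Sos1*, the Ras exchange factor, at 0.13 ± 0.08 in ZR against ZRPF.

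Of 15 clathrin coat and adaptor genes, 12 were tested and none passed, beside at most 0.00644% of all probe sets tested. The median log2 difference of the 12 was -0.01 in ZD against PF, with 6 lower and 6 higher. It was -0.00 in ZR against ZRPF, with 7 lower and 5 higher. *Ap2m1*, the adaptor subunit that reads endocytosis motifs, stood at 0.07 ± 0.06 (SE) in ZD against PF and at -0.07 ± 0.06 in ZR against ZRPF. *Dnm2*, a dynamin that cuts vesicles from the membrane, stood at 0.53 ± 0.18 in ZD against PF (adjusted p = 0.475 in limma), and *Eps15* at -0.14 ± 0.08. *Clta* and *Cltb*, the clathrin light chains, stood at -0.06 ± 0.06 and 0.13 ± 0.11 in ZR against ZRPF.

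Markers of neurons and of diencephalic regions bear on the tissue in which *Lrrn3* was measured. Of the 14 pan-neuronal markers 13 were tested, and their summed signal ran from 83350 to 89660 in ZD, from 83954 to 91085 in PF, from 85874 to 95916 in ZR and from 86879 to 99126 in ZRPF. In ZD against PF, 6 of 13 stood lower, beside 47.5% of all probe sets, with a median of 0.02. In ZR against ZRPF 9 of 13 stood lower, beside 51.7%, with a median of -0.00. All 18 thalamus markers were tested. In ZD against PF, 16 of the 18 stood lower, with a median of -0.13, beside 47.5% of all probe sets. In ZR against ZRPF, 5 of 18 stood lower, with a median of 0.06, beside 51.7% of all probe sets. No thalamus marker passed in either comparison, beside at most 0.00644% of all probe sets tested. The summed thalamus signal ran from 50027 to 59855 in ZD, 55781 to 64823 in PF, 52726 to 64678 in ZR and 52819 to 59322 in ZRPF. *Vav3* (-0.27 ± 0.10), *Synpo2* (-0.25 ± 0.10) and *Plcb4* (-0.21 ± 0.09) had the smallest p in ZD against PF. The part of thalamus content in the *Lrrn3* values was not tested.

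Of 19 hypothalamus markers on the array 12 were tested. In ZD against PF 5 stood lower (median 0.03), and in ZR against ZRPF 7 (median -0.05). None passed the threshold, beside at most 0.00644% of all probe sets tested. *Oxt*, oxytocin, stood at -0.54 ± 0.23 (SE) in ZD against PF and at -0.28 ± 0.23 in ZR against ZRPF. *Calcr*, the calcitonin receptor, stood at -0.36 ± 0.14 (SE) in ZD against PF. *Npy*, a feeding peptide, stood at 0.04 ± 0.11 there and at -0.16 ± 0.11 in ZR against ZRPF. *Cartpt*, an appetite-reducing peptide, stood at 0.32 ± 0.13 in ZD against PF. Of 13 telencephalon markers on the array, 6 lay below the filter, among them *Emx1*, *Neurod6* and *Tbr1* of the cortex. The 7 tested had summed signals of 2997 to 5243 in ZD, 3125 to 5785 in PF, 3156 to 4143 in ZR and 3035 to 5069 in ZRPF. In ZD against PF 6 of the 7 stood higher (median 0.18), beside 52.5% of all probe sets. In ZR against ZRPF 5 of the 7 stood lower (median -0.14), beside 51.7%. The part of telencephalon content in the *Lrrn3* values was not tested.

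Markers of border tissues and of myeloid cells were mostly higher in ZD than in PF, where 52.5% of all probe sets tested were higher, but the sums of 3 of the 4 lists overlapped and no member passed. The summed signal of 7 choroid plexus markers ran from 9470 to 21388 in ZD and from 8546 to 10006 in PF, with 7 of 7 higher in ZD and a median log2 difference of 0.49. In ZR it ran from 7672 to 33556 and in ZRPF from 8131 to 35190, with the high sums in ZR rats 10 and 15 and in ZRPF rats 5 and 6. For 12 meningeal and mural markers the sum ran from 16882 to 26792 in ZD and from 16506 to 17600 in PF, with 12 of 12 higher in ZD, and from 14020 to 17226 in ZR and from 15574 to 18255 in ZRPF, with 2 of 12 higher in ZR, beside 48.3% of all probe sets. For 7 ependyma and tanycyte markers it ran from 4629 to 5363 in ZD and from 3828 to 4435 in PF, without overlap, and from 4062 to 4427 in ZR and from 4831 to 5400 in ZRPF, without overlap in the other direction. For 9 microglia and myeloid markers it ran from 5990 to 7086 in ZD and from 4847 to 6060 in PF, with 7 of 9 higher, and from 5656 to 6413 in ZR and from 5610 to 6776 in ZRPF. Of these markers *Tagln*, of smooth muscle, stood at 0.91 ± 0.17 (SE) in ZD against PF, *Lyz2*, a lysozyme of myeloid cells, at 0.45 ± 0.09, and *Vim*, an intermediate filament protein, at 0.40 ± 0.10 there and at -0.34 ± 0.10 in ZR against ZRPF. No single marker of these 4 lists passed in limma in either comparison, beside at most 0.00644% of all probe sets tested. The part of these markers in the *Lrrn3* values was not tested.

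The other marker lists also had no member past the threshold, beside at most 0.00644% of all probe sets tested in either comparison. In ZD against PF the median was -0.01 for 11 oligodendrocyte markers, -0.06 for 10 astrocyte markers, 0.16 for 10 endothelial markers and -0.09 for 3 midbrain and hindbrain markers. There 7 of 11 oligodendrocyte, 9 of 10 astrocyte and 3 of 3 midbrain and hindbrain markers stood lower, beside 47.5% of all probe sets. Of the endothelial markers 9 of 10 stood higher, beside 52.5%. In ZR against ZRPF the median was -0.08 for oligodendrocyte, -0.14 for astrocyte, 0.04 for endothelial and 0.03 for midbrain and hindbrain markers. There 8 of 11 oligodendrocyte and 7 of 10 astrocyte markers stood lower, beside 51.7%, and 7 of 10 endothelial and 2 of 3 midbrain and hindbrain markers higher. Of the astrocyte markers 4 of 10 had an unadjusted p under 0.05 in limma, beside 5.21% of all probe sets. The part of these lists in the *Lrrn3* values was not tested. The single blood marker tested, a haemoglobin gene, stood at -0.16 in ZD against PF and -0.58 in ZR against ZRPF.

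Of the T cell markers, the *Cd3d*, *Cd3e*, *Cd3g*, *Cd2*, *Cd5*, *Cd4* and *Cd8a* probe sets all lay below the filter. The T cell receptor chain *Cd3d* had signals of at most 8.10 in any array, *Cd3g* of at most 64.9 and *Cd4* of at most 88.8. The 2 tested T cell genes, *Lef1* and *Lck*, are also known from brain, and *Lef1* is in the thalamus list. In ZD against PF 1 of the 2 stood at -0.19 and the other at 0.32 (smallest adjusted p = 0.581 in limma). For 1 of them the ZD and PF arrays did not overlap, beside 4.19% of all probe sets tested. In ZR against ZRPF they stood at -0.01 and 0.15, both overlapping.

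Of 11782 tested probe sets with 1 gene symbol, the one whose log2 signal followed that of *Lrrn3* most closely over the 16 arrays was that of *Amot*, angiomotin, a scaffold of cell junctions and of Hippo signalling (Pearson r = 0.864, Spearman coefficient = 0.862). The *Amot* signal was 1116, 1089, 1131 and 1014 in ZD rats 2, 3, 8 and 9, against 1287, 1308, 1582 and 1521 in PF rats 1, 2, 4 and 6. In the recovery experiment it was 1171, 1304, 1152 and 1496 in ZR rats 7, 10, 13 and 15, against 1354, 1401, 1295 and 1417 in ZRPF rats 2, 4, 5 and 6. Like *Lrrn3*, *Amot* did not overlap between ZD and PF, where 1.7% of all probe sets tested were lower in ZD without overlap. It overlapped between ZR and ZRPF, as did all but 2.98% of them. *Amot* was picked for its likeness to *Lrrn3* over these arrays, so nothing is read from this. Its log2 difference was -0.39 ± 0.09 (SE) in ZD against PF and -0.10 ± 0.09 in ZR against ZRPF (adjusted p = 0.945 in limma).

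The next genes by r were *Syne1* (0.843), which encodes nesprin-1 of the nuclear envelope, *Snrnp48* (0.839), a protein of the minor spliceosome, *Usp54* (0.820), *Tead1* (0.814), a transcription factor of Hippo signalling, and *Cryab* (0.804), a small heat shock protein. Their ZD-PF differences ran from -0.86 for *Cryab* to -0.25 for *Tead1*, and the ZR-ZRPF differences from -0.32 for *Cryab* to -0.05 for *Syne1*, none past the threshold. A further probe set was listed for *Syne1*, *Snrnp48* and *Tead1*, with r of 0.582, 0.577 and 0.517. The genes of lowest r were *Arhgap35* (-0.870), a GTPase-activating protein, *Virma* (-0.838), part of the RNA methylation complex, *Nrarp* (-0.834), a regulator of Notch signalling, and *Dbp* (-0.826), a clock-controlled transcription factor. For *Arhgap35* a further probe set had an r of 0.441 and for *Virma* of -0.171, so these probe sets do not describe the whole gene.

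All these genes were picked as extremes of 11782 values, whose median was -0.02, and arrays of 4 groups share the group differences, so each r is a description. Without ZD rats 2 and 9, which lay farthest from the median of *Lrrn3*, r was 0.806 for *Amot*, 0.741 to 0.778 for the next 5 genes, and -0.819 to -0.726 for the 4 lowest. No gene picked by likeness was a member of the lists described above (0 of 20). Those lists held only 179 tested genes, beside the 11782 probe sets picked from, so this count says little.

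**Figure D4:**
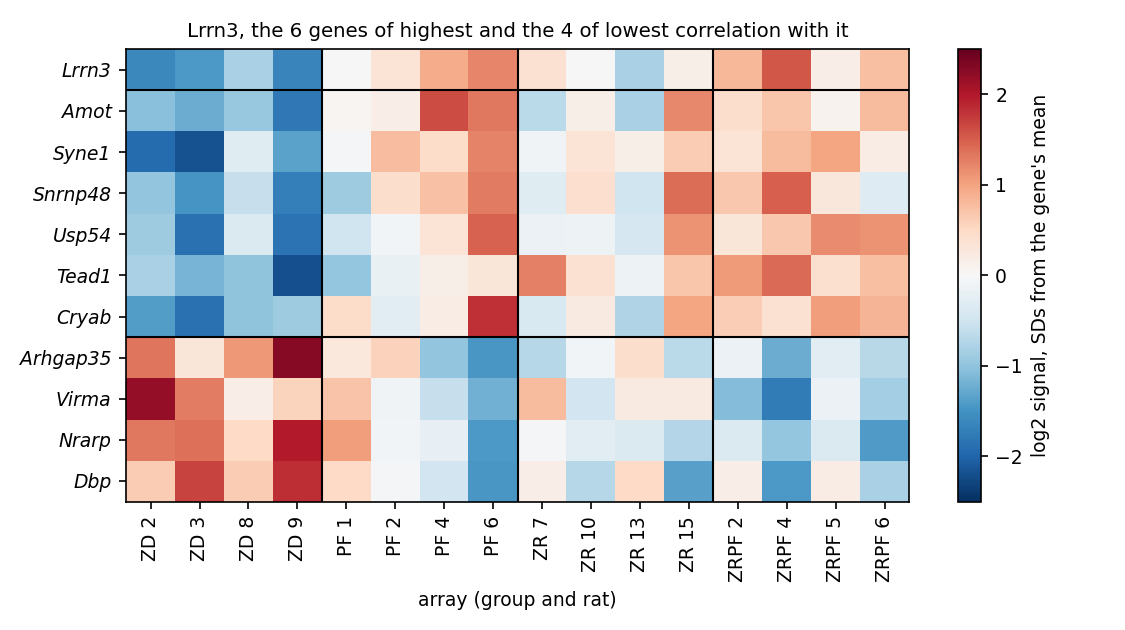
Log2 signal of *Lrrn3* (top row), of the 6 genes of highest and of the 4 genes of lowest Pearson r with it, in each of the 16 arrays, as SDs from each gene's own mean (red higher, blue lower). The ZD arrays are low in the upper 7 rows and mostly high in the lower 4.

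Once group means were removed, another set of genes followed *Lrrn3* from rat to rat. Here the highest r was that of *Ube2q2* (0.949), a ubiquitin-conjugating enzyme, and it stayed between 0.939 and 0.964 with any 1 array left out. The *Ube2q2* signal was 2401, 2427, 2773 and 2526 in ZD rats 2, 3, 8 and 9, against 2554, 2639, 2935 and 3046 in PF rats 1, 2, 4 and 6. It was 3195, 2826, 2558 and 2909 in ZR rats 7, 10, 13 and 15, against 2724, 3004, 2310 and 2764 in ZRPF rats 2, 4, 5 and 6. Within the groups the highest rat for *Lrrn3* was also the highest for *Ube2q2* in all 4 groups. Between groups *Ube2q2* differed less, by -0.14 ± 0.09 (SE) in ZD against PF and 0.09 ± 0.09 in ZR against ZRPF. Further probe sets of *Ube2q2*, *C18h18orf54* and *Kif13a* had an r of 0.484, 0.483 and -0.263 over the 16 arrays, group means included. By that same measure the picked probe sets of these genes had 0.664, 0.505 and -0.439. These genes too are extremes of 11782 values, whose median was -0.04.

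The next genes by this measure were *C18h18orf54* (0.890), *Ell2* (0.867), an elongation factor of RNA polymerase, *Slc25a53* (0.865), of the mitochondrial carrier family, *Ppp1cb* (0.859), a catalytic subunit of a protein phosphatase, and *Cttnbp2* (0.850), a cortactin-binding protein of dendritic spines. The lowest were *Ranbp3* (-0.896), a nuclear transport protein, *Bckdk* (-0.890), the kinase of branched-chain keto acid dehydrogenase, *Kif13a* (-0.874), a kinesin, and *Rad52* (-0.861), a DNA repair protein. Of these 10 genes none passed in ZR against ZRPF. None of the 20 genes picked was picked by both measures.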

How the data were processed

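The authors deposited 1 linear signal intensity per probe set and array, made with MAS5 per the submitters' processing notes and the labels. The version and detection calls are not given in the sources used here. Of 31099 probe sets 57 controls were left out, and the log2 of each signal was used with no further scaling. Gene symbols came from the platform table, with 20826 probe sets of 1 symbol, 436 of several and 9780 of none. By gene identifier 20758 were given their current symbol. A single limma model (version 3.58.1, R 4.3.3) covered all 16 arrays and let the prior variance follow intensity. Its two-sided p values were adjusted over 15521 probe sets after Benjamini and Hochberg, with a threshold of 0.05. The pipeline was tested on simulated data.

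Lists hold each gene by its brightest tested probe set. *Lrrn3* and the 19 lists were chosen with earlier results of these data known. Genes named were, by a rule, *Lrrn3*, its relatives and neighbours, the 6 of highest and 4 of lowest r by each likeness measure, and from each list up to 3 of smallest p per comparison. Likeness was Pearson r of log2 signals with *Lrrn3*. Labels do not name batches. Alternatives were quantile normalization, median centring, no filter, a stricter filter, an offset of 32, no trend, array weights, only the groups compared, and each array left out.

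Rats of the same number in PF and ZRPF come from different experiments, and their deviations correlated at 0.079, 0.020 and 0.035, so they were not treated as pairs. ZR and ZRPF share no rat number.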

Additional observations from a re-analysis of the deposited data

Results flagged for a closer look

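*Lrrn3* itself had no array standing far from the others of its group. Among 50 probe sets screened in 4 groups, 7 values lay apart from the other 3 arrays of their group, where about 1 in 20 of the 200 groups, or 10, would do so by chance. *Kif13a* had a log2 signal of 9.41 in ZD rat 2, against 9.11 to 9.12 in the other ZD rats. *Flrt3* had 8.77 in ZR rat 7, against 8.91 to 8.93 in the other ZR rats. *Sos1* had 10.06 in PF rat 1, against 10.27 to 10.31 in the other PF rats. *Map2k2* had 10.57 in ZR rat 13, against 10.17 to 10.21 in the other ZR rats. *Ap2m1* had 12.85 in ZD rat 8, against 13.03 to 13.06 in the other ZD rats. *Cartpt* had 11.22 in ZR rat 15, against 10.91 to 10.95 in the other ZR rats. *Npy* had 10.00 in ZD rat 8, against 10.48 to 10.57 in the other ZD rats.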

How the results depend on the processing

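*Lrrn3* kept its direction in all 24 alternatives for ZR against ZRPF, from -0.31 to -0.18 with an array left out and from -0.25 to -0.23 otherwise, and never passed. Leaving out a ZD or PF array cannot change this difference. Neither can another filter, no intensity trend or only the groups compared, so those alternatives bear on the adjusted p alone. For ZD against PF the *Lrrn3* difference ran from -0.61 to -0.50 with an array left out and from -0.60 to -0.54 otherwise. For ZR against ZD it ran from 0.32 to 0.43 with an array left out. For ZRPF against PF it ran from -0.01 to 0.12, and was -0.03 with median centring, so that difference has no settled sign. With rats of the same number as a replicate block it was 0.056 ± 0.081 (SE). Probe sets past the threshold in ZR against ZRPF, 1 over all arrays, numbered 0 to 9 with an array left out, the 9 without ZRPF rat 6 and 0 without PF rat 1 or 4, ZD rat 2 or 8, ZRPF rat 2, 4 or 5, or ZR rat 7, 10 or 15. They numbered 0 with quantile normalization, no filter, a stricter filter, no intensity trend or only the groups compared, and the cause was not tested. In ZD against PF they numbered 0 to 3, the 3 without ZD rat 8. No list member passed in any alternative. For *Amot*, r ran from 0.83 to 0.90 with an array left out. The 4 arrays per group, 1 probe set for the gene and the absence of detection calls here limit the precision.

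No paired analysis was possible for ZD against PF or ZR against ZRPF because the labels used here name no pair-feeding partners.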
